A study of Mus musculus with 8 samples.

Results

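Macrophage precursors of the mouse yolk sac were represented here by 90 single wells, chosen from 306 wells that held at least 5000 transcripts in the A1/A2 libraries and from 1536 wells sequenced in the whole study. The embryos were untreated C57BL/6N wild types at embryonic day 9.5, and the tissue was the extraembryonic yolk sac. Cells had been stained for CD45 and CD11b, sorted as CD45+ into 384-well plates and sequenced one cell per well by mCEL-Seq2, which counts transcripts by random identifiers. The study holds 4 libraries labelled A1 and A2 cells and 4 labelled EMP cells, the latter sequenced alongside. A1 and A2 cells share their libraries, so no label says which of them a well held. All 8 libraries carry the same batch label, and nothing in the labels says whether the 4 libraries of a kind came from separate litters. The p-values below therefore measure the spread between libraries, which may be technical.

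A well was a member when the genes Csf1r, Cx3cr1, Lpl, Ccnd2, Coro1a and Spi1, called the M genes here, stood out. Their summed transcripts per 10000 transcripts of the well were divided by the mean over the 306 wells, and the same ratio was formed for 4 other gene sets. These were a neutrophil set N (S100a8, S100a9, Il1rn and Slfn4), a monocyte set O (Ly6c2, Ccr2, Chil3 and Lyz1), a primitive red cell set R (Hbb-y, Hbb-bh1 and Hba-x) and an endoderm set E (Apoa1, Apoa4, Apoc2 and Ttr). Members had M as the highest ratio, at 1.5 or above. Measured values thus chose the wells, and the levels of the 21 genes of the rule are described without a test, except where a single M gene was left out of the rule.

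Yolk sac macrophages form when erythromyeloid progenitors (EMP), which carry Kit, lose the potential for other lineages and take up a macrophage programme. The stages between are named A1 and A2 in the field, and A2 cells have lost Kit and gained the receptors Csf1r and Cx3cr1. Such cells leave the yolk sac through the circulation and give rise to microglia in the brain and to the macrophages at its borders. Csf1r is the receptor for the growth factors Csf1 and Il34, Cx3cr1 is the receptor of the chemokine fractalkine, and Spi1 encodes PU.1, the transcription factor that myeloid cells depend on. Lpl is a secreted lipase, Ccnd2 is cyclin D2, and Coro1a is an actin-binding coronin of blood cells.

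Members made up 30 of 79 wells in library 1, 24 of 84 in library 2, 12 of 70 in library 3 and 24 of 73 in library 4. The share was 29.1% ± 8.87 (SD, n = 4 libraries). Over all 306 wells it was 29.4%, with an exact Clopper-Pearson 95% interval of 24.4 to 34.9% that covers counting error only. Of the 216 other wells, 84 were led by the endoderm set, 14 by the monocyte set, 13 by the red cell set and 9 by the neutrophil set at a ratio of at least 1.5, while 96 had no set at that ratio. In 42 of those 96 wells the M genes were the highest set but below 1.5. The M ratio of the members had a median of 2.18 and reached 4.93. Near the threshold the wells formed a continuum. The lowest members stood at 1.505, 1.524 and 1.551, the highest wells outside at 1.4996, 1.489 and 1.487, with 17 wells from 1.5 to 1.75 and 14 from 1.25 to 1.5. In 1 member a second set also reached 1.5, and 2 wells with an M ratio of at least 1.5 were left out because another set was higher.

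**Figure D1:**
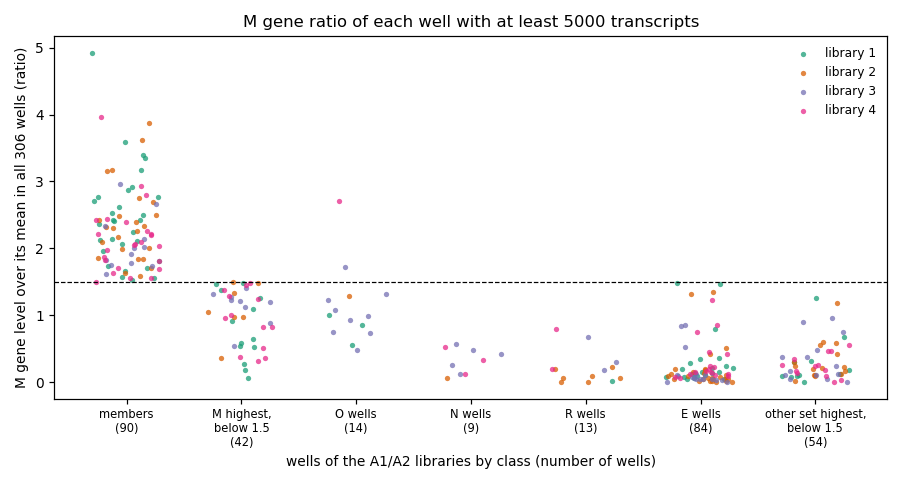
M gene ratio (vertical axis; summed M genes per 10000 transcripts over the mean of the 306 wells) of each well, coloured by library and grouped by class; the dashed line marks 1.5. The 90 members run from 1.505 to 4.93 with no gap to the 42 wells below the line in which the M genes were also the highest set.

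Member wells were deep. They held a median of 43009 transcripts and 6501 genes, against 18483 transcripts in the other wells. All 90 members had transcripts of the M set, at a median of 36.9 per 10000 against 3.93 in the other wells. The neutrophil set had a median of 0 in members, with a transcript in 27 of 90 wells. The monocyte set stood at 0.894 per 10000, the red cell set at 2.06 and the endoderm set at 6.71. An endoderm transcript was found in 90 and a red cell transcript in 86 of the 90 members, and none of these were removed from the counts.

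The 6 genes that chose the wells differed in how evenly members carried them. Levels are given as CPM, counts scaled to a total of 1000000, of the transcripts summed over the member wells of a library. Csf1r stood at 341, 386, 293 and 370 CPM in libraries 1 to 4, Cx3cr1 at 244, 249, 182 and 211, and Spi1 at 91.2, 104, 146 and 158. Ccnd2 was the most even across libraries, at 1639, 1414, 1502 and 1508 CPM. Lpl varied most in absolute terms, at 1332, 1533, 936 and 847 CPM. Coro1a was at 371, 387, 558 and 480 CPM. Libraries 1 and 2 were higher than libraries 3 and 4 in Lpl and Cx3cr1, and lower in Coro1a and Spi1. For each of the 6 genes the lowest member library exceeded the highest library of other wells, which is what the rule selects for. In the other wells Csf1r stood at 135 CPM ± 22.3 (SD, n = 4) and Ccnd2 at 328 CPM ± 108.

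**Figure D2:**
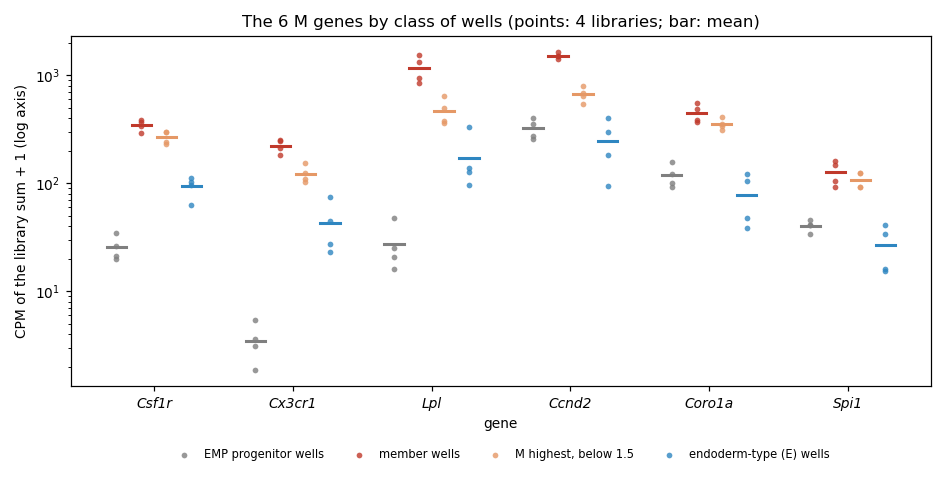
Levels of the 6 M genes (CPM of the library sum plus 1, log axis) in the 4 libraries of EMP progenitor wells, member wells, wells with M highest below 1.5, and endoderm-led wells; points are libraries and bars their means. Cx3cr1 shows the widest step from EMP progenitor wells (2.50 CPM) to member wells (222 CPM).

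To measure each M gene without its own vote, the wells were chosen again from the remaining 5 genes, and the gene left out was compared between the new members and the other wells of the same libraries. All 6 genes remained higher in 4 of 4 libraries. Cx3cr1 reached 217 CPM ± 29.7 against 62.0 ± 24.1 (SD, n = 4), a log2 difference of 1.68 ± 0.25 (SE; edgeR quasi-likelihood test, adjusted p = 0.00182). Csf1r was at 335 against 133 CPM (1.17 ± 0.15, adjusted p = 0.000117 by edgeR), and Spi1 at 123 against 50.6 CPM (1.12 ± 0.17, adjusted p = 4.49e-05 by edgeR). Ccnd2 differed by 1.24 ± 0.15 (adjusted p = 0.000769 by edgeR) and Coro1a by 1.32 ± 0.26 (adjusted p = 0.0190 by edgeR). Lpl differed by 1.74 ± 0.31 (adjusted p = 0.0210 by edgeR), but no longer passed the 5% threshold without library 3 (1.79, adjusted p = 0.0824) or without library 4 (1.78, adjusted p = 0.0624). The remaining genes of the rule still chose these wells, so the 6 values are not 6 independent observations.

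At one common depth the 6 genes were not detected alike. After each well was thinned to 5000 transcripts, Ccnd2 was seen in 97.9% ± 4.17 of members (SD, n = 4 libraries), Coro1a in 94.0% ± 2.67 and Lpl in 90% ± 5.65. Csf1r was seen in 79.4% ± 10.2, Cx3cr1 in 59.6% ± 7.25 and Spi1 in 54.0% ± 17.3. Endoderm-led wells had a transcript of Ccnd2 in 38.9%, of Lpl in 38.8%, of Csf1r in 25.7% and of Cx3cr1 in 11.4% at the same depth (median depth before thinning 35372 transcripts, against 43009 in members). The member shares have to be read beside these. Whether transcripts in endoderm-led wells are background or made by those wells was not tested, and 5 of the 84 had an M ratio of at least 1. Kit, the receptor that marks the progenitors, was seen in 6.04% ± 2.67 of members and in 2.86% of endoderm-led wells, a low share in both. Its level in member sums was 8.29, 5.03, 12.7 and 13.3 CPM. In EMP progenitor wells, which Kit helped to choose, it was 173 CPM ± 24.9. A high value there follows from that choice and is no test. Adgre1, which encodes F4/80, was nearly absent as well, at 9.27 CPM ± 5.33, as were the microglia genes P2ry12 (7.35 CPM ± 1.83) and Tmem119 (0.856 CPM ± 0.655) and the resident macrophage gene Timd4 (0.482 CPM ± 0.558). The whole microglia list of 15 genes, however, came to 615 CPM ± 39.3 in members. In the comparisons below, 1 of 9 tested genes of that list was higher and 2 lower than in the other wells. Against EMP progenitors 3 of 5 were higher and 1 lower. Other macrophage genes were present, with C1qb seen in 55.2% of thinned members and in 30.7% of thinned endoderm-led wells. The M genes chose the wells, so their presence is no check of the macrophage precursor label.

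The rule was then carried over to the EMP libraries, whose wells had no part in it. With the same means as divisors, 3 of 505 EMP wells with at least 5000 transcripts met it (0.594%, exact 95% interval 0.123 to 1.73%). Of these 3 wells, 2 were in library 2 and 1 in library 3. One of them held 159 Lpl transcripts and none of Spi1, and another held 79.8 Ccnd2 transcripts and none of Mrc1.

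The first comparison set the sums of member wells against the sums of all other wells of the same 4 libraries. Member wells had more transcripts of blood-cell signalling, actin, DNA replication and ribosome assembly genes, and fewer of lysosome genes and of endoderm genes. The 21 genes of the rule were left out, and 8928 genes were tested. Of these 1790 were higher and 2294 lower in member wells at an adjusted p of 5% (edgeR quasi-likelihood test with a library block, Benjamini-Hochberg), together 45.7% of those tested (20% higher and 25.7% lower). The rule itself drew this contrast, and genes that go with the M genes from well to well are favoured by it, so these counts and p-values describe the chosen wells and are no independent support. Depth moved with the contrast, since the members were the deeper wells. With all wells thinned to 5000 transcripts 3027 genes were tested and 929 passed, of which 898 were also called, in the same direction, at full depth. The endoderm-led wells weigh heavily among the other wells, so list counts are given also with red cell and endoderm wells left out of the reference, where 519 genes were higher and 914 lower of 7899 tested (18.1% called, 6.57% higher and 11.6% lower). List counts are over the genes that passed the filter on low counts. A gene can pass through the 1 group in which it is high, so the counts do not stand for whole lists. The log2 differences are scaled by TMM, while CPM are plain. The TMM factors of the member sums exceeded those of the others by 0.188 on the log2 scale, which lowers the log2 differences.

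Against the other wells as a whole, genes that relay signals from Csf1r and from Fc receptors were higher throughout the list. All 16 tested of this list were higher in member wells (median log2 difference 1.06, against -0.01 over all tested genes), and 7 of 16 stayed so without red cell and endoderm wells. Plcg2, a phospholipase that acts below these receptors, stood at 263, 262, 306 and 274 CPM in members and at 124, 73.5, 111 and 116 in the other wells, without overlap (1.21 ± 0.11, adjusted p = 4.38e-08 by edgeR). The phosphatase Ptpn6 (1.09 ± 0.12), the ubiquitin ligase Cbl (0.90 ± 0.13), the adaptor Dok2 (1.24 ± 0.18) and Ptprc, which encodes the sorted surface protein CD45 (1.20 ± 0.18), were higher in 4 of 4 libraries. Among growth factor and cytokine receptors, 7 of 12 rose and none fell, with Il6ra at 1.40 ± 0.17, Tgfbr2 at 1.46 ± 0.21 and Ifngr1 at 1.23 ± 0.17. Without red cell and endoderm wells only 3 of 12 remained higher and 1 was lower.

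The actin regulators of blood cells went the same way. Of 23 tested, 20 were higher and 1 lower (median 0.92), and 11 were higher and 1 lower without red cell and endoderm wells. Nckap1l, a subunit of the complex that drives actin branching in blood cells, was at 94.0, 87.6, 116 and 76.7 CPM in members and at 36.2, 21.1, 31.6 and 34.4 in other wells (1.42 ± 0.16, adjusted p = 4.02e-07 by edgeR). The GTPase Rac2 (1.32 ± 0.22), the GDP-dissociation inhibitor Arhgdib (1.17 ± 0.12) and the branching subunit Arpc1b (0.59 ± 0.07) also rose. The exception was Cotl1, an F-actin-binding protein, at 99.1 CPM ± 15.3 against 214 ± 28.1 (-1.29 ± 0.12, adjusted p = 3.77e-08 by edgeR).

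Genes of DNA replication were higher, while most of those of mitosis were not called. In the S phase list 16 of 20 rose and none fell (median 0.46), led by the replication helicase subunit Mcm3 at 215, 225, 233 and 222 CPM against 114, 100, 101 and 128 (0.83 ± 0.10, adjusted p = 1.58e-06 by edgeR) and by Hells (0.69 ± 0.10). Without red cell and endoderm wells 5 of 20 stayed higher. In the G2 and M phase list 2 of 20 rose, Tpx2 (0.33 ± 0.12) and Bub1 (0.40 ± 0.14), and Cenpf fell by 0.56 ± 0.13. The cell cycle inhibitors Cdkn1c and Cdkn1a were lower in every library. Cdkn1c was at 66.4, 52.4, 93.5 and 75.1 CPM in members and at 264, 405, 439 and 473 in other wells (-2.65 ± 0.13, adjusted p = 1.08e-10 by edgeR), and Cdkn1a differed by -1.10 ± 0.17. Cdkn1c was at 557 CPM ± 89.8 in endoderm-led wells.

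Ribosome assembly genes rose in 18 of 20 cases and fell in none (median 0.56), and in 11 of 20 without red cell and endoderm wells. Npm1, the nucleolar chaperone nucleophosmin, stood at 4444, 4828, 4448 and 4306 CPM against 2738, 2423, 2653 and 2749 (0.58 ± 0.05, adjusted p = 3.78e-08 by edgeR). Nop56, a core protein of the particles that methylate ribosomal RNA, differed by 0.77 ± 0.08 and nucleolin (Ncl) by 0.59 ± 0.06. Of 96 ribosomal protein genes 68 were higher and 1 lower, and all 15 mitochondrial genes tested were lower (median -0.66).

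Among transcription factors, 9 of 18 rose and 5 fell. Irf8, which myeloid progenitors need to enter the macrophage and microglia lineage, stood at 264, 261, 320 and 354 CPM in members and at 125, 51.2, 64.7 and 88.0 in other wells, without overlap (1.73 ± 0.22, adjusted p = 0.000635 by edgeR). Mef2c, a MADS-box factor of microglia and other cells, was at 551 CPM ± 41.0 against 161 ± 35.7 (1.61 ± 0.13). Runx1, the factor that starts definitive blood formation, was at 116 CPM ± 27.1 against 47.4 ± 15.1 (1.12 ± 0.13). Id2 (-3.01 ± 0.15) and Klf6 (-0.95 ± 0.12) were lower. Without red cell and endoderm wells 6 of 16 were higher and 4 lower.

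Some progenitor genes were still carried. Of 13 tested in that list 4 rose and 2 fell. Cd34, a surface sialomucin of progenitors and endothelium, stood at 143, 91.6, 189 and 119 CPM against 62.7, 32.2, 39.1 and 39.3 (1.45 ± 0.15, adjusted p = 2.75e-07 by edgeR). Lmo2, a partner of blood transcription factors (1.49 ± 0.21), and Meis1 (0.83 ± 0.19) were also higher. Kit was at 9.84 CPM ± 3.91 against 13.1 ± 3.51 (-0.58 ± 0.34, adjusted p = 0.175 by edgeR) and Myb, a factor of progenitors, at 21.9 ± 10.1 against 14.7 ± 4.27 (0.36 ± 0.27, adjusted p = 0.289 by edgeR). Without red cell and endoderm wells 2 of 12 were higher and 5 lower.

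Macrophage effector genes showed no common direction against the other wells. In the macrophage list 4 of 19 rose, Itgam (CD11b, 1.20 ± 0.17), Laptm5 (1.42 ± 0.19), Cd33 (1.48 ± 0.21) and the high-affinity Fc receptor Fcgr1 (0.94 ± 0.33, adjusted p = 0.0465 by edgeR), and 2 fell. C1qb, a chain of complement C1q, was at 381, 371, 239 and 264 CPM in members and at 285, 167, 302 and 333 in other wells, so that the groups overlapped (0.04 ± 0.33, adjusted p = 0.931 by edgeR). Mrc1, the mannose receptor CD206 that border macrophages keep, was at 118, 122, 79.2 and 70.1 CPM in members and at 59.1, 71.8, 146 and 92.0 in other wells (-0.05 ± 0.40, adjusted p = 0.938 by edgeR). Without red cell and endoderm wells C1qb and C1qc were lower in members (-0.70 and -0.75, adjusted p = 6.87e-06 and 5.73e-05 by edgeR), while Mrc1 differed by -1.07 (adjusted p = 0.119 by edgeR). In the other direction, with no ratio minimum for members, C1qb (0.85, adjusted p = 0.0400), C1qc (1.13, adjusted p = 0.00107) and Mrc1 (2.11, adjusted p = 0.0360) were called higher by edgeR. Mrc1 was also called higher (1.32, adjusted p = 0.000702 by edgeR) once the wells with M highest below 1.5 left the reference, an alternative chosen after seeing the data. Complement and oxidase genes rose in 5 of 13 cases and fell in 1.

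Lysosome genes were lower in 18 of 21 cases and higher in none (median -1.10), and lower in 11 of 21 without red cell and endoderm wells. The protease Ctsb stood at 323, 289, 309 and 293 CPM in members and at 785, 984, 988 and 818 in other wells (-1.74 ± 0.08, adjusted p = 2.34e-12 by edgeR). Lgmn (-2.58 ± 0.13), Cd63 (-1.72 ± 0.12) and Grn (-1.58 ± 0.14) followed. Endoderm genes outside the rule fell in 18 of 18 cases, among them the fibrinogen genes Fga and Fgg and the endocytic receptor Lrp2, and in 16 of 18 without red cell and endoderm wells. The summed endoderm list came to 2801 CPM ± 369 in members, 15648 ± 3062 in the other wells and 23507 ± 2084 in endoderm-led wells. Its part in the differences of lysosome genes, Apoe (-2.03 ± 0.16) and Cdkn1c was not tested beyond leaving out those wells.

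The genes with the largest differences of all were of mixed kinds. The 12 highest in members were Hp, Cd28, Flt1, Rgs2, Serpinb10, Evi2a, Gpr84, Fgd2, Irf8, St8sia4, Ptgs1 and Coro2a, with log2 differences from 2.38 to 1.65. Flt1, a VEGF receptor known from endothelium, stood at 162, 158, 204 and 175 CPM in members and at 56.8, 18.2, 28.1 and 60.5 in other wells (1.98 ± 0.35, adjusted p = 0.00963 by edgeR). Of the 4 endothelial genes used to sort the EMP wells, Cdh5 (0.669 CPM), Esam (1.42 CPM) and Plvap (3.01 CPM) were near 0 in members, and Tie1 was at 20.4 CPM ± 2.83 against 13.03 in the other wells and 166 in EMP progenitors. The summed endothelial list, Flt1 included, came to 294 CPM ± 22.4 in members and 135 ± 22.3 in the other wells, and the part of endothelial transcripts in the Flt1 difference was not tested. Hp, haptoglobin, was at 109 CPM ± 20.6 against 20.9 ± 17.9 (2.38 ± 0.59, adjusted p = 0.0441 by edgeR). Cyclooxygenase 1 (Ptgs1) reached 217 CPM ± 11.7 against 62.6 ± 21.4, and the chemokine Ccl3, from the list of chemokines, 149 ± 65.6 against 50.9 (1.36 ± 0.14). The 12 lowest were the imprinted transcripts Mirg, Meg3 and Rian together with Epcam, Bicc1, Usp51, Lamb1, Lama1, Col1a2, Col1a1, Krt8 and Apom, from -4.55 to -3.37. Meg3 stood at 31.3 CPM ± 14.4 in members, 497 ± 183 in all other wells and 691 ± 148 in endoderm-led wells.

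**Figure D3:**
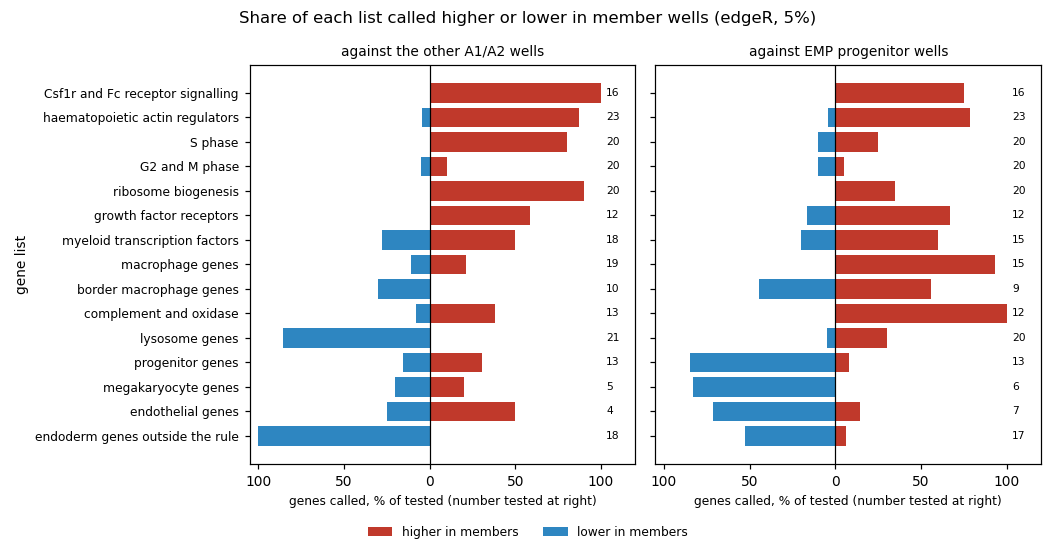
Share of each gene list called higher (red, right) or lower (blue, left) in member wells at an adjusted p of 5%, against the other A1/A2 wells and against EMP progenitor wells; the number tested stands at the right of each bar. Of the macrophage and complement lists 14 of 15 and 12 of 12 genes were higher against EMP progenitors, and 4 of 19 and 5 of 13 against the other A1/A2 wells.

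The 42 wells in which the M genes were highest but below 1.5 carried more Mrc1 and C1qb than the members, while lists of macrophage-related genes went both ways. Not all of them lay near the threshold: their median M ratio was 1.03, with 22 wells from 1 to 1.5 and 20 under 1. Mrc1 stood at 176, 196, 640 and 247 CPM in libraries 1 to 4 of these wells, above the members of the same library in 4 of 4 cases. C1qb stood at 497, 558, 657 and 567 CPM, again above members in each library. The summed complement and oxidase list was lower in members in 4 of 4 libraries (1549 CPM ± 89.1 against 1800 ± 186), and the summed macrophage list in 3 of 4 (2328 ± 257 against 2808 ± 432). The Fc and paired receptor list was higher in members in 4 of 4 libraries (315 CPM ± 35.7 against 244 ± 23.5). The microglia list (615 ± 39.3 against 645 ± 173) and the chemokine list (385 ± 83.3 against 329 ± 123) were each higher in members in 3 of 4. Members were in turn higher in 4 of 4 libraries for Irf8 (300 against 177 CPM), Flt1 (175 against 76.6 CPM), Hp (109 against 24.9 CPM) and the granule protease Prtn3 (233 against 128 CPM). The summed primary granule list was 1.49 times that of the wells below the threshold, higher in 4 of 4 libraries. The interferon list was 2.20 times as high, but rested on 4 member wells: without them, an alternative chosen after seeing the data, members were higher in 1 of 4 libraries. Several lists of the first comparison differed little here. Members had 1.04 times the S phase, 1.10 times the ribosome assembly, 1.14 times the actin and 1.22 times the signalling transcripts. Each of these was higher in 4 of 4 libraries. Lysosome transcripts in members were at 0.852 times the level of the wells below 1.5, lower in 3 of 4 libraries. The ratio that separates these wells uses the M genes, so the values are a description and were not tested. The wells below 1.5 also held mesenchyme transcripts in libraries 1 and 2 (1195 and 3059 CPM over the list, against 47.0 and 45.3 in members). In libraries 3 and 4 they held more endoderm transcripts (5876 and 5573 CPM over the list, against 2590 and 2540 in members). The part of these in the differences, the Mrc1 value of library 3 included, was not tested.

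Prtn3, proteinase 3 of primary granules, was itself widespread in the members. It stood at 221, 205, 265 and 239 CPM in members and at 146, 31.8, 68.2 and 59.5 in all other wells, without overlap, although the difference missed the threshold (1.57 ± 0.41, adjusted p = 0.0509 by edgeR). After thinning it was seen in 54.4% ± 9.99 of members and 14.8% of endoderm-led wells. Clec5a, a myeloid receptor in the same list, rose by 1.28 ± 0.26, and the metallothionein gene Mt1 fell by 1.97 ± 0.11.

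The second comparison set the members against the progenitors from which such cells are thought to come. In the EMP libraries 118 wells had a progenitor set (Kit, Cd34, Myb and Itga2b) as the highest of the progenitor, endothelial, red cell and endoderm sets, at 1.5 or above (30, 22, 32 and 34 wells in libraries 1 to 4). The EMP wells had no part in choosing the members, but measured transcripts chose both groups. Genes that go with the M genes or with the progenitor set from well to well are favoured by that choice. The counts and p-values therefore describe the chosen wells and are no independent support. The sort label, the library and the cell stage differ together between the groups and cannot be told apart. Of 8218 genes tested, with the 29 genes of all sets left out, 1306 were higher and 1206 lower in members, 30.6% of those tested, 15.9% higher and 14.7% lower (edgeR quasi-likelihood test without a block). The TMM factors of the members differed from those of the progenitors by -0.07 on the log2 scale, which raises the log2 differences. Thinned to 5000 transcripts per well, 210 genes were higher and 127 lower of 2420 tested.

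Macrophage effector genes were far higher in members than in these progenitors. Of 27 listed macrophage genes 15 passed the filter on low counts, and of these 14 rose and none fell (median log2 difference 2.86, against -0.01 over all tested genes), and of 14 complement and oxidase genes 12 passed it and rose (median 4.24). C1qb stood at 381, 371, 239 and 264 CPM in members and at 8.84, 10.6, 7.65 and 6.82 in progenitors, without overlap (5.31 ± 0.20, adjusted p = 1.42e-16 by edgeR). C1qc (5.07 ± 0.30), the complement receptor C3ar1 (4.45 ± 0.33) and the oxidase subunit Cybb (4.04 ± 0.48) rose with it. Mrc1 was at 97.3 CPM ± 26.4 against 12.8 ± 5.35 (2.86 ± 0.24, adjusted p = 1.46e-09 by edgeR). Maf, a factor of border macrophages and other mature macrophages, reached 400 CPM ± 99.1 against 83.2 ± 9.38 (2.34 ± 0.15), and Ctsc 480 ± 76.9 against 142 ± 5.07. Transcripts of the endoderm list were lower in members (2801 CPM ± 369 against 4728 ± 645 over the list, with 9 of 17 called lower and 1 higher). Whether these transcripts were background or made by the wells was not tested, nor was their part in the other differences.

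Signalling and chemokine genes rose alongside. In the Csf1r and Fc receptor signalling list 12 of 16 were higher and none lower, with the adaptor Tyrobp at 237 CPM ± 41.3 against 32.7 ± 16.4 (2.87 ± 0.28), Fcer1g at 391 ± 40.9 against 182 ± 18.4 and the inhibitory receptor Sirpa at 2.19 ± 0.15. Of 19 Fc and paired receptors 6 passed the filter and 5 rose, among them Fcgr1 (3.92 ± 0.33) and Pilra (4.19 ± 0.38). Clec7a had 166 transcripts against 1 (ratio 157, exact interval 27.8 to 6229). Of 18 genes of the chemokine list 4 passed the filter and rose, and the other 14 were too low to test. Ccl3 had 541 transcripts in member sums and 2 in progenitor sums, a ratio of 255 with an exact counting interval of 70.4 to 2115, and Ccl6 differed by 5.53 ± 0.68. Ly86, partner of the receptor Cd180, had 230 transcripts against 2 (ratio 109, interval 29.7 to 902). Among cytokine receptors 8 of 12 rose, with Il6ra at 3.13 ± 0.31 and Tnfrsf1b at 3.08 ± 0.27, and 2 fell.

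Transcripts of CD45 and CD11b, the surface proteins stained for the sort, differed between the groups. Ptprc was at 127, 145, 119 and 184 CPM in members and at 36.2, 14.8, 27.3 and 6.82 in progenitors (2.79 ± 0.35, adjusted p = 0.000346 by edgeR). Itgam was at 60.8, 66.5, 76.0 and 61.7 CPM against 7.07, 8.45, 18.6 and 5.97 (2.79 ± 0.25, adjusted p = 7.66e-10 by edgeR). Neither gene overlapped between the groups.

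Actin regulators rose in 18 of 23 cases and fell in 1. Tmsb4x, the actin-sequestering thymosin, stood at 4276, 4490, 4434 and 4943 CPM in members against 1099, 1152, 1326 and 1339 (1.95 ± 0.09, adjusted p = 3.02e-16 by edgeR). Lcp1 (1.61 ± 0.11) and Cd52 (2.97 ± 0.22) were other examples.

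Progenitor genes fell with 1 exception among those called. Of 13 tested 11 were lower and 1 higher (median -2.83). Mycn, a proto-oncogene of early progenitors, was at 1.84, 1.01, 4.75 and 3.34 CPM in members and at 227, 142, 142 and 146 in progenitors (-5.89 ± 0.29, adjusted p = 4.47e-14 by edgeR). Gata2, a factor of stem and progenitor cells, was at 2.76, 3.02, 7.92 and 1.67 CPM against 94.6, 207, 96.2 and 102 (-5.02 ± 0.42, adjusted p = 1.28e-06 by edgeR). Erg (-5.72 ± 0.40), Gata1 (-4.48 ± 0.42), the adhesion receptor Adgrg1 (-3.81 ± 0.20) and Angpt1 (-3.21 ± 0.22) fell too. Of 6 megakaryocyte genes 5 fell, among them the thrombin receptor F2r (-5.02 ± 0.35), Clec1b (-3.36 ± 0.29) and the integrin Itgb3 (-1.66 ± 0.25). Of 7 endothelial genes 5 fell, with Kdr at -5.79 ± 0.38, Tek at -3.02 ± 0.34 and Pecam1 at -1.57 ± 0.27. Flt1 was the 1 endothelial gene that rose, from 54.2 CPM ± 18.2 to 175 ± 20.9 (1.68 ± 0.16, adjusted p = 7.47e-09 by edgeR).

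Runx1 fell only in part, from 230 CPM ± 37.7 in progenitors to 116 ± 27.1 (-0.96 ± 0.15), so that members lay between the progenitors and the other A1/A2 wells. Cd34, which chose the progenitor wells, went from 263 CPM ± 29.2 to 136 ± 41.0 and was not tested. In the transcription factor list 9 of 15 rose and 3 fell. Irf8 stood at 264, 261, 320 and 354 CPM against 21.2, 14.8, 54.7 and 13.6 (3.56 ± 0.36, adjusted p = 0.000244 by edgeR), Irf5 at 59.9 ± 9.94 against 1.75 ± 1.89 (4.95 ± 0.35), and Zeb2 and Mef2c differed by 1.12 ± 0.16 and 0.72 ± 0.11.

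**Figure D4:**
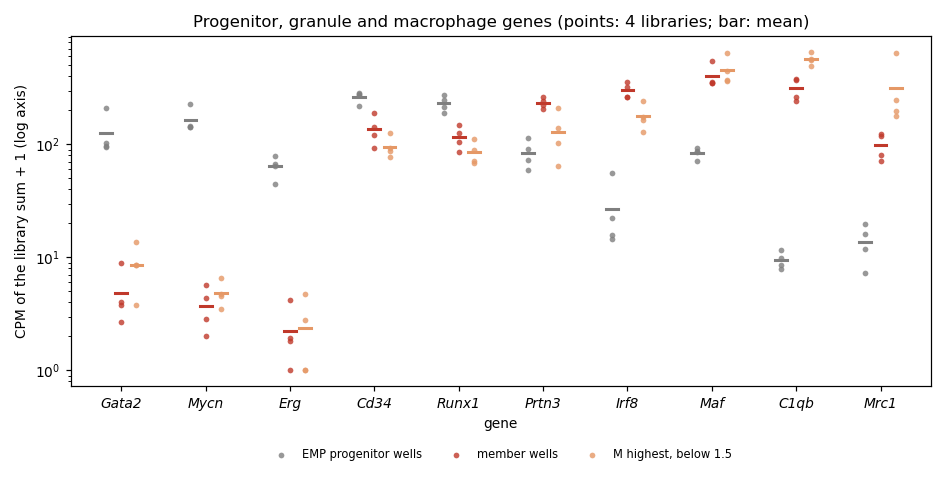
CPM of the library sum plus 1 (log axis) for 10 genes in EMP progenitor wells, member wells and wells with M highest below 1.5; points are the 4 libraries and bars their means. Gata2, Mycn and Erg are near 0 in members, Cd34 and Runx1 are in between, Prtn3 and Irf8 are highest in members, and C1qb and Mrc1 are higher in the wells below 1.5.

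The primary granule list did not fall with the progenitor genes: 3 of its 6 tested genes rose and none fell. Besides granule enzymes the list holds the receptor Clec5a, Hp and Mt1. Prtn3 was at 221, 205, 265 and 239 CPM in members and at 58.3, 71.9, 113 and 89.6 in progenitors, without overlap (1.54 ± 0.15, adjusted p = 2.47e-08 by edgeR). Mpo, myeloperoxidase, was at 69.6 CPM ± 12.9 against 58.7 ± 17.1 (0.28 ± 0.18, adjusted p = 0.256 by edgeR). Clec5a (3.42), Hp (4.65 ± 0.47) and Plac8, a gene of myeloid progenitors and monocytes (3.86 ± 0.17), rose. The cell cycle lists split: 5 of 20 S phase genes rose and 2 fell, with Hells at 0.54 ± 0.11 and Mcm7 at -0.39 ± 0.10, and 1 of 20 G2 and M phase genes rose (Bub1, 0.64 ± 0.18) while Ccnb2 (-0.85 ± 0.12) and Cdk1 (-0.48 ± 0.11) fell. The kinase Cdk4, partner of the D-type cyclins, fell by 0.47 ± 0.09. Ribosome assembly genes rose in 7 of 20 cases and lysosome genes in 6 of 20, with Ctsz at 1.91 ± 0.13 and 1 lower. Of the border macrophage list 5 of 9 rose and 4 fell, Apoe among the latter (-0.96 ± 0.10).

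Of the 12 genes with the largest differences in each direction, those higher in members and not yet named were Cd28 (5.64 ± 0.38), Ighm, the immunoglobulin mu heavy chain gene (4.88 ± 0.35, 58.4 CPM ± 11.4 against 2.06 ± 1.65), and Fgd2 (4.39 ± 0.32). Those lower were Rab27b, Tspan18, Ctla2a, Car2, Rasip1, Spns2 and Rasgef1b, from -5.01 to -3.82.

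Monocyte-led wells of the same libraries were a distant neighbour. Only libraries 1 and 3 held at least 3 of them, so 42 members were compared with 12 monocyte-led wells whose sums held 107051 transcripts. Of 5495 genes tested 264 were higher and 505 lower in members, 14% of those tested, 4.8% higher and 9.19% lower (edgeR with a library block). The rule used this contrast as well, and nothing is read from the count. Members had less of nearly every macrophage gene: 19 of 22 were lower and none higher, as were 16 of 16 interferon response genes, 5 of 5 genes of MHC class II and 13 of 14 Fc and paired receptors. In the Csf1r and Fc receptor signalling list 7 of 16 were lower and none higher. Of the actin regulators 9 of 22 were lower and none higher, so both lists turned from the first comparison. Ms4a7 and Clec4a3 had no transcript in the 42 members, at least 102-fold and at least 176-fold lower against a floor of 3 transcripts over the group, and so did Pla2g7 (at least 160-fold lower). Ms4a4c had 3 transcripts against 89 (476-fold lower, exact interval 158 to 2350) and Ifi27l2a 2 against 58 (465-fold lower, 123 to 3930). Adgre1 was at 4.81 CPM ± 2.32 (SD, n = 2) against 234 ± 280, Ptprc at 123 ± 5.91 against 494 ± 25.9 (-2.30 ± 0.43, adjusted p = 2.61e-06 by edgeR) and Itgam at 68.4 ± 10.8 against 225 ± 48.7 (-1.89 ± 0.60).

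In the other direction, Prtn3, Ptgs1, Lyar, Uhrf1 and Aurka had no transcript in the monocyte-led wells and were at least 8.46-fold, 8.07-fold, 11.7-fold, 6.40-fold and 4.01-fold higher in members. Cd34 had 274 transcripts against 1 (ratio 17.1, exact interval 3.04 to 677). Of 19 S phase and of 20 G2 and M phase genes 7 each were higher in members and none lower. Irf8 did not pass the test (0.61 ± 0.51, adjusted p = 0.507 by edgeR), nor did Mrc1, at 98.6 CPM ± 27.4 against 11.9 ± 16.9 (1.96 ± 1.11, adjusted p = 0.255 by edgeR). Lyz1, which chose the monocyte-led wells, has a near-identical copy, so its reads may be split between the copies.

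Neutrophil-led wells were fewer still, 8 wells in libraries 3 and 4 with 165035 transcripts, against 36 members. A single well of library 4, with 3 sets at a ratio of 1.5 or above, held 88802 of these transcripts (53.8% of the group and 84.9% of its library's sum), and without mixed wells the comparison could not be fitted. Of 5580 genes tested 78 were higher and 351 lower in members, 7.69% of those tested, 1.4% higher and 6.29% lower (edgeR with a library block, again a contrast of the rule). Irg1 and Retnlg had no transcript in members, at least 322-fold and at least 77.6-fold lower, and Rsad2 (-7.43 ± 0.68), Ccl4 (-7.21 ± 0.66), Clec4d (-6.94 ± 0.77) and Cd14 (-6.55 ± 0.76) were lower too. Rgs2, Fes, Dok2 and Ly86 had no transcript in the neutrophil-led wells and were at least 9.68-fold, 5.56-fold, 4.63-fold and 4.15-fold higher in members. Irf8 was at 337 CPM ± 23.8 against 35.7 ± 3.68 (SD, n = 2; 2.79 ± 0.66, adjusted p = 0.000634 by edgeR). Mrc1 (0.82 ± 0.85) and Itgam (0.13 ± 0.78) did not pass the test. The 78 higher calls depended on deep member wells and on the tool. An alternative left out wells over 3 times the median depth of their library. This took library 3 from 12 to 6 members and removed no neutrophil-led well, so the well with 88802 transcripts stayed in. Without these deep members edgeR called 0 higher and 27 lower of 2866 genes tested, with 159 higher and 327 lower at an unadjusted p under 0.05, against 448 and 601 with all wells. DESeq2 called 3 higher and 201 lower.

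The members were not uniform among themselves. Lpl ranged from 0.341 to 50.9 and Ccnd2 from 1.43 to 41.2 transcripts per 10000. Mrc1 ranged from 0 to 14.3, with a transcript in 51 of 90 wells, Prtn3 from 0 to 8.66, with a transcript in 77, and Kit was found in 20 wells at full depth. An Mrc1 transcript was found in 15 of 30, 15 of 24, 7 of 12 and 14 of 24 members of libraries 1 to 4.

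Wells with less Ccnd2 had more macrophage transcripts. Across the 90 wells Spearman's rho of Ccnd2 with the summed macrophage list was -0.63, and within libraries 1 to 4 it was -0.72, -0.63, -0.90 and -0.45. With the complement and oxidase list it was -0.57, negative in each library. Ccnd2 had a rho of 0.37 with the progenitor list. Cx3cr1 ran with the macrophage list (0.48, from 0.32 to 0.62 within libraries), whereas Prtn3 ran against it (-0.43, negative in each library). The S phase list had no clear relation to the macrophage list (0.03). These are descriptions over wells that share a library, a depth range and the rule: a well poor in Ccnd2 entered only if its other M genes were high, and levels are shares of one total per well. Between the 6 M genes themselves, thinned to one depth, rho lay between -0.26 and 0.26.

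**Figure D5:**
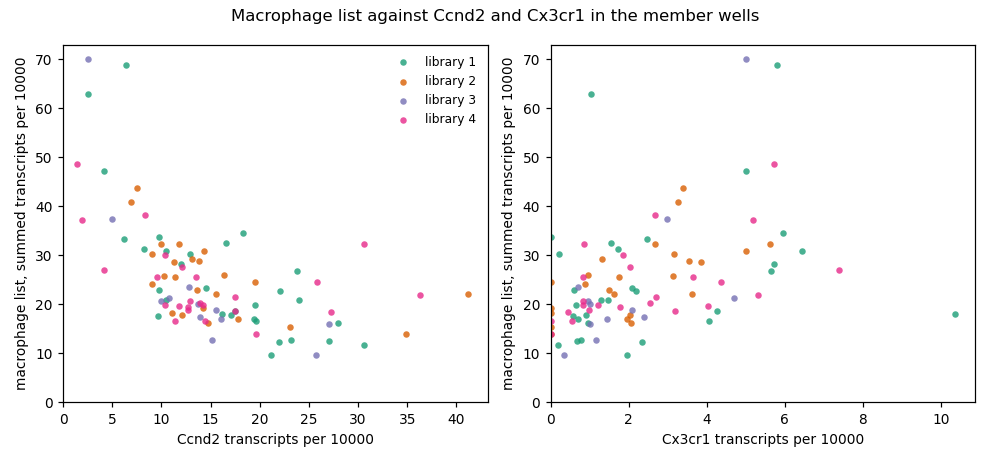
Summed macrophage list against Ccnd2 (left) and Cx3cr1 (right) in transcripts per 10000, 1 point per member well, coloured by library. The well highest in the macrophage list, at 70.0, had 2.50 of Ccnd2.

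A pair of members stood apart from the rest. One, in library 4 with 11802 transcripts, had 277 MHC class II transcripts per 10000, and one, in library 2 with 5216 transcripts, had 111, together with 158 lymphoid transcripts per 10000 of which 44 transcripts in all were Igkc. The median member had 0.299 and 0.670. Interferon response transcripts were concentrated as well, at 42.8, 39.7, 33.9 and 30.9 per 10000 in 4 wells of libraries 1, 3 and 4, against a median of 0.944. Without the 2 wells high in MHC class II, an alternative chosen after seeing the data, 1808 genes were higher and 2310 lower than in the other wells and 1311 were higher and 1207 lower than in EMP progenitors.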

How the data were processed

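Single sorted cells were sequenced by mCEL-Seq2 in 8 libraries, and the deposited tables hold estimated counts for each gene in each well, without any scaling. The values lie on the steps that a correction for collisions among 4096 random identifiers gives. BWA 0.6.2-r126 and Seurat are named in the submitters' processing notes without a role. For the genome build, annotation and counting rule nothing is given in those sources. The per-library tables, which also hold the EMP wells, carry the same deposited values in 23091 genes.

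Wells under 5000 transcripts were left out. Counts were summed per library and class of well (at least 3 wells per sum), rounded and tested with edgeR 4.0.16 in R 4.3.3 (limma 3.58.1; TMM, filterByExpr, robust quasi-likelihood fit, Benjamini-Hochberg 5%), with a library block within the A1/A2 libraries and none against the EMP libraries. Alternatives used DESeq2 1.42.0, other thresholds, thinning and left-out libraries. Whole libraries held 2592583 to 3587985 transcripts (A1/A2) and 3916769 to 5426903 (EMP), and no wells were duplicated. The scripts were tested on simulated data.

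Named genes were, per comparison, among genes called with 1 direction in every library and 50 CPM or more on the higher side, the 12 with the largest difference each way, up to 4 genes of each list by p, and Kit, Mrc1, Ptprc, Itgam, Adgre1, Runx1, Cd34, Irf8 and Myb; unnamed, ribosomal protein and mitochondrial genes were only counted, and some genes are not reported here. The wells, the 30 gene lists and the tests were chosen with earlier results of these data known. Doublets were not called, and 1 member had a second set at 1.5 or above.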

Additional observations from a re-analysis of the deposited data

Results flagged for a closer look

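In 18 of 269 groups of 4 libraries, 1 library lay far from the other 3 by Dixon's 95% criterion, and chance marks about 1 in 20 such groups. All values are CPM of library sums.

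Among member wells, Gpr84 was lower in library 4 (54.2, others 55.3 to 55.4), Irf5 was lower in library 1 (45.2, others 63.4 to 66.7), and Clec5a (44.2, others 22.2 to 23.8) and Adgrg1 (23.4, others 10.1 to 11.98) were higher in library 4. Maf was higher in library 2 (549, others 345 to 355).

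Among the other A1/A2 wells, library 2 was low for Ptpn6 (59.9, others 91.0 to 93.8) and Arpc1b (311, others 454 to 470). Library 1 was low for Usp51 (62.0, others 92.0 to 96.8) and high for Nop56 (526, others 380 to 402), and library 4 was low for Kit (7.87, others 14.8 to 15.04).

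Among EMP progenitor wells, library 3 was high for Hp (14.2, others 0.853 to 2.11), Fcgr1 (5.47, others 2.11 to 2.65), Cybb (16.4, others 0.853 to 2.11), Lcp1 (243, others 184 to 194) and Mpo (84.2, others 47.8 to 52.2), and low for Car2 (244, others 334 to 349). Mycn was high in library 1 (227, others 142 to 146). Gata2 was high in library 2 (207, others 94.6 to 102).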

How the results depend on the processing

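Counts of called genes moved with depth, tool and reference wells. The number of genes tested moved as well. Against the other wells (4084 genes of 8928 tested) 929 of 3027 were called after thinning and 1433 of 7899 without red cell and endoderm wells. With DESeq2 2697 were called, and 3336 to 4195 with a library left out. Against EMP progenitors (2512 of 8218) thinning left 337 of 2420 tested, and leaving out a library 2102 to 2426. Against neutrophil-led wells (429) 923 were called at a minimum of 1000 transcripts, 137 of 631 tested after thinning, 27 without deep wells, 266 with no filter and 204 with DESeq2. Against monocyte-led wells (769) 261 of 914 tested were called after thinning, 505 with no filter and 296 with DESeq2. With the replicate block against EMP progenitors 2721 genes were called; with no replicate block 3730, 617 and 1197 were called against other, neutrophil-led and monocyte-led wells. Same-numbered A1/A2 and EMP libraries deviated together little (correlations 0.079, 0.182, 0.028 and 0.117 over 6084 genes; 3 of 4 best with their own number), and the labels do not say what the shared number stands for, so it was not taken to pair them.

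The member share was 18.7% at a ratio minimum of 2 and 43.0% with none. Unthinned shares of members with a transcript were 98.96% for Csf1r, 91.9% for Cx3cr1, 100% for Lpl and for Coro1a, 94.2% for Spi1, 57.3% for Mrc1, 23.8% for Kit, 86.7% for Prtn3 and 97.3% for Irf8. The left-out Lpl difference ran from 1.47 to 1.99 without 1 library.

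Some directions turned, and the cause was not tested. Against the other wells Mrc1 was at 2.11 with no ratio minimum (past the threshold), 0.15 at a minimum of 1000 transcripts, 0.41 thinned, 1.32 without the wells with M highest below 1.5 (past the threshold, chosen after seeing the data), and -0.30 to 0.27 with a library left out. C1qb was at -0.32 at a ratio minimum of 2, -0.22 thinned, -0.16 without deep wells, -0.70 without red cell and endoderm wells, 0.85 with no ratio minimum and -0.23 to 0.24 with a library left out; C1qc was at -0.48, -0.051, -0.039, -0.75, 1.13 and -0.20 to 0.34. Myb was at -0.55 without red cell and endoderm wells. With no ratio minimum Col1a2 was at 1.07 and Col1a1 at 0.83. Itgam against neutrophil-led wells was at -2.12 at a minimum of 1000 transcripts. Of the values of called named genes over all settings in which they were tested, 1116 of 1172 (other), 1178 of 1181 (EMP), 74 of 92 (neutrophil-led) and 115 of 125 (monocyte-led) kept direction and call. Large differences or small p in the main fit chose most of these genes, so they do not stand for all calls. Of all genes called at full depth, thinning kept 22.0% (other) and 12.6% (EMP), partly because fewer genes were tested. Leaving out a library, or a minimum of 10000 transcripts, could not be fitted for the neutrophil-led and monocyte-led wells, nor could leaving out mixed wells for the former.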
